A study of Homo sapiens with 11 samples.

Results

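The 10 genes described here encode proteins of meiotic chromosomes and of germline chromatin: SYCP1, SYCP2, SYCP3, SMC1B, STAG3, REC8, HORMAD1, TEX14, BRDT and CTCFL. They were chosen by gene symbol, and all 10 were found among the 58699 genes of the total RNA table. The RNA is that of HCT116 cells, a long-established human line grown from a colorectal cancer. All cells received a small interfering RNA (siRNA), either against luciferase, which human cells lack (siLuc, the control), or against Staufen1 (siStau1), a protein that binds double-stranded RNA. Both kinds of cell received DMSO, the solvent, or decitabine (DAC), a nucleoside that traps DNA methyltransferases and so lowers DNA methylation, at 500 nM for 5 days per the labels. The 4 groups (siLuc or siStau1, each with DMSO or DAC) had 2 total RNA libraries each, and the labels do not say whether these came from separate cultures. All results come from 1 cell line.

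In meiosis, homologous chromosomes are held along their length by the synaptonemal complex. SYCP2 and SYCP3 form its lateral elements and SYCP1 its central transverse filaments, while HORMAD1 marks chromosome axes that are not yet synapsed. Meiotic cohesin, the ring that ties sister chromatids, swaps somatic subunits for SMC1B, STAG3 and REC8. TEX14 keeps the bridges between germ cells open, BRDT is the testis form of the BET proteins that read acetylated histones, and CTCFL (BORIS) is the testis paralog of the insulator protein CTCF. In somatic cells such genes are commonly silent and many have methylated CpG-rich promoters, so a drug that lowers methylation is a usual way to ask whether they can be switched on.

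Of the 10 genes, 8 matched RefSeq promoter windows of 300 bases, from 250 before to 50 after a start, in 12 windows (build GRCh38.p14), and HORMAD1 and TEX14 had none. The stretches printed here lie before the starts of 3 genes that were high with DAC (BRDT, STAG3 and SYCP3) and 2 that stayed low (SYCP2 and SMC1B). Each is cut so that it holds at most 30 bases of annotated exon. Capitals mark TTCCCGC, the core bound by E2F factors, or CACGTG, an E-box.

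BRDT (chr1:91949121-91949370, plus strand): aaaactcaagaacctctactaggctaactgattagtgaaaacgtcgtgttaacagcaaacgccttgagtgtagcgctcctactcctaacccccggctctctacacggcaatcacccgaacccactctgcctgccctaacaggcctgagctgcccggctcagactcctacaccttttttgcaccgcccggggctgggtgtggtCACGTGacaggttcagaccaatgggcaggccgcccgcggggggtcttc

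STAG3 (chr7:100177474-100177592, plus strand): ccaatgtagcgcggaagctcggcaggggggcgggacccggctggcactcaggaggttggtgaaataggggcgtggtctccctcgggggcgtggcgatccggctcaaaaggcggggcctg

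SYCP3 (chr12:101739463-101739577, minus strand): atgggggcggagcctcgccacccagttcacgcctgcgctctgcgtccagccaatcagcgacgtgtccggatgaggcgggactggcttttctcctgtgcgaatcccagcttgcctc

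SYCP2 (chr20:59933638-59933763, minus strand): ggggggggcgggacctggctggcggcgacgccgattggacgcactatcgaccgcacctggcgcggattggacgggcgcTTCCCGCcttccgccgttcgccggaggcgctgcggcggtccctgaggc

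SMC1B (chr22:45413600-45413690, minus strand): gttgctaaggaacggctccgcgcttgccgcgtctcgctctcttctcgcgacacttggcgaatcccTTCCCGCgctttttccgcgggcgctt

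The number of CpG sites, the substrate of DNA methylation, did not separate the genes that stayed low from those that were high with DAC. The windows of SYCP2 and SMC1B held 41 and 34 CpG sites, against a median of 14 over all 35116 windows, and 94.2% and 85.9% of all windows held as many or fewer. SYCP3 had 24, REC8 26, STAG3 20 and 30, and BRDT 21 and 23 in their windows. CTCFL, which has 3 annotated starts, had 2, 15 and 19, and SYCP1 had 15. The letters TTCCCGC, searched on both strands, were in a window of SYCP1, SYCP2, SMC1B, STAG3 and REC8, 5 of the 8 genes. By window that was 5 of 12, beside 6.55% of all windows. In SYCP2 and SMC1B the match lay 48 and 26 bases before the start, as the capitals show. CACGTG was in windows of STAG3 and BRDT, 4 of the 12 windows, and in 7.26% of all windows. The 2 windows of STAG3 overlap and share 1 such match, as do those of BRDT, where it lay 48 bases before the first start. One STAG3 window held both motifs, 171 and 7 bases before its start, which do not overlap. A match is a run of letters and was not tested for binding, and methylation was not measured in these files.

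**Figure D1:**
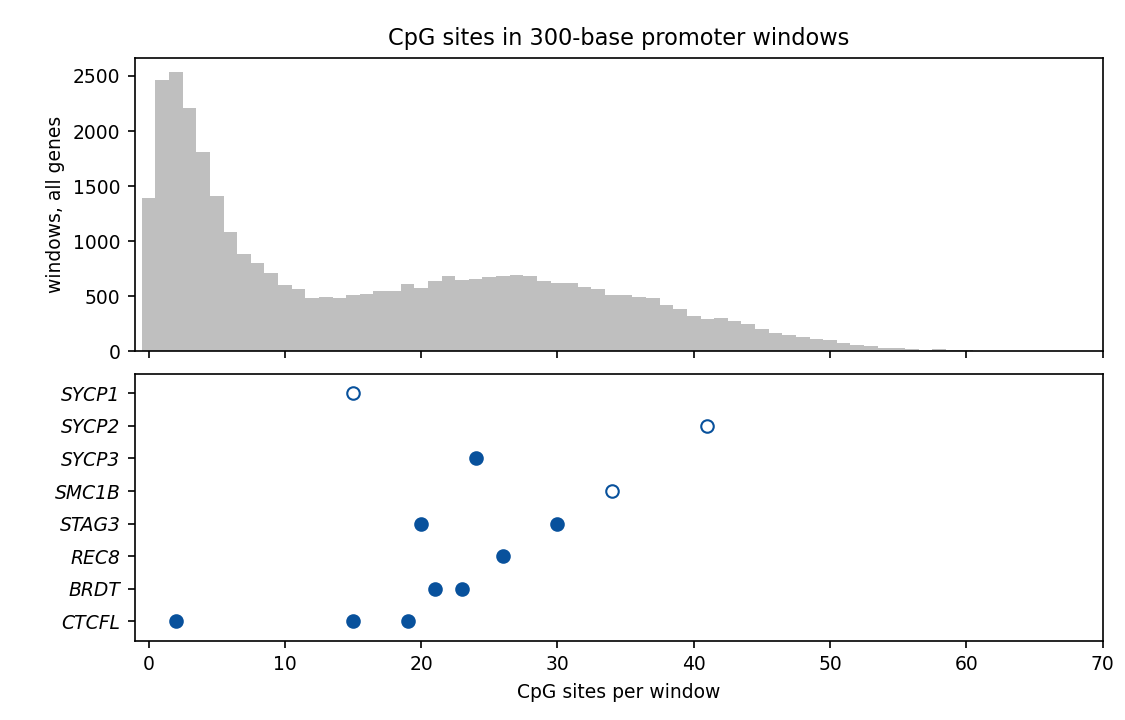
Number of CpG sites in 300-base promoter windows (x axis) for all genes (upper panel, grey bars, number of windows) and for 8 of the germline genes (lower panel, 1 point per annotated start). Filled points are genes with at least 1 FPKM in both DAC groups and open points are genes below 1 FPKM in all groups. SYCP2, which stayed low, has the highest count, at 41.

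The total RNA table gives 1 FPKM value (fragments per kilobase of transcript, scaled to the mapped fragments of the library) per gene and group, so no spread between libraries can be given, the depth is unknown, and all tests are the authors' own. A gene is called here when its q-value in the authors' deposited table is under 0.05. The siRNA target STAU1 had 35.5 FPKM with DMSO and 33.7 with DAC in siLuc cells and 29.98 and 27.1 in siStau1 cells, with q-values of 0.767 and 0.685 for knockdown in the authors' deposited table, so a lower STAU1 mRNA level in the groups labelled siStau1 (log2 ratios of -0.24 and -0.31) was not called. Of 6 epithelial markers, 5 had at least 1 FPKM in every group (EPCAM, CDH1, KRT8, KRT18 and KRT19), while VIL1 was under 0.2 FPKM in all 4. With DAC in siLuc, EPCAM fell from 259 to 117 FPKM and KRT19 rose from 537 to 1419, and in siStau1 KRT19 rose from 449 to 1041 and KRT18 from 509 to 2415. KRT18 went from 681 to 3469 FPKM in siLuc without a call (q-value 0.0773 in the authors' deposited table), and EPCAM from 338 to 179 in siStau1 (q-value 0.0905 there). Of 6 markers of blood, vessel, connective tissue and muscle cells, 6 were higher with DAC in each siRNA arm, and their summed level was 3.97 FPKM with DMSO and 25.8 with DAC in siLuc cells and 2.12 and 20.1 in siStau1 cells. With DMSO, PTPRC and COL1A2 were at 0 in both arms, and PECAM1 was at 0 in siLuc and 0.00618 FPKM in siStau1. The other markers were above 0 with DMSO. DES had 2.23 FPKM in siLuc and 1.14 in siStau1, COL1A1 1.59 and 0.826, and PDGFRB 0.150 and 0.143. The part of all these markers in the results on the germline genes was not tested.

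Without DAC the germline genes were at or near silence. In siLuc DMSO none of the 10 reached 1 FPKM, 7 were under 0.1 FPKM and 3 of these were listed at 0. In siStau1 DMSO 7 were under 0.1 FPKM, 4 of them listed at 0, and only REC8 and TEX14 passed 1 FPKM. Their summed level was 1.67 FPKM in siLuc cells and 2.61 in siStau1 cells with DMSO, and 21.7 and 23.4 with DAC. With DAC, 6 genes were at 1 FPKM or more in both arms (SYCP3, STAG3, REC8, TEX14, BRDT and CTCFL), HORMAD1 was so in siStau1 only, and SYCP1, SYCP2 and SMC1B stayed under 0.3 FPKM in all groups. Fewer cells expressing a gene and less RNA per cell cannot be told apart in such bulk RNA.

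**Figure D2:**
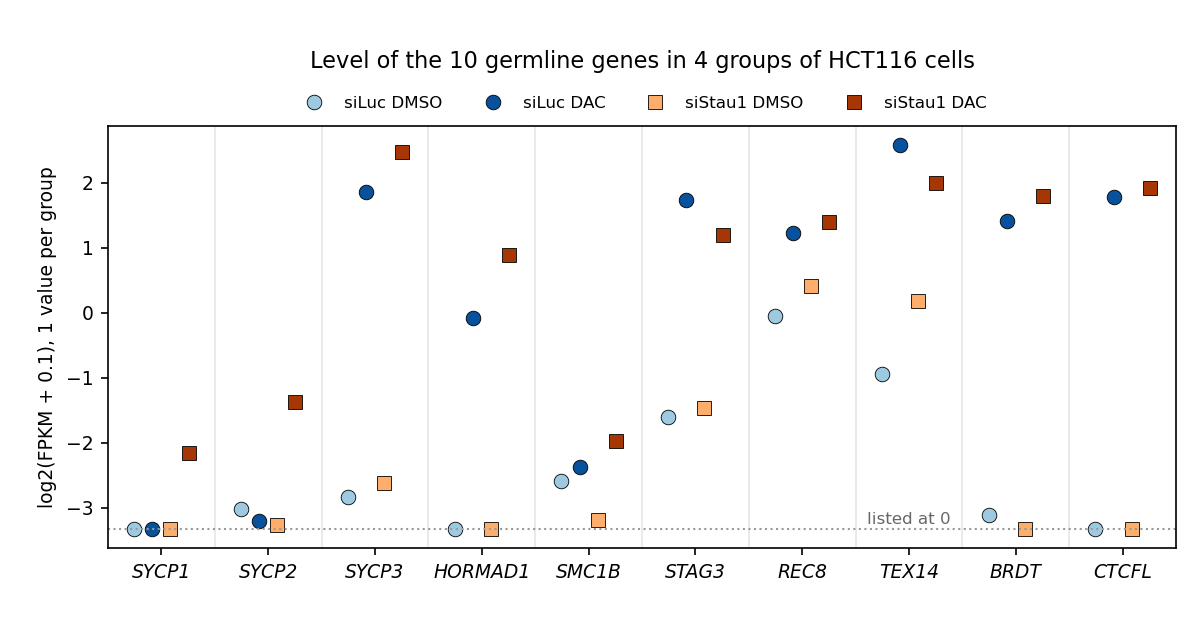
Level of each germline gene in the 4 groups, as log2(FPKM + 0.1), with 1 point per group of 2 libraries and no error bar because no value per library is given. Points on the dotted line are listed at 0. The DAC groups (dark) stand above the DMSO groups (light) for all genes except SYCP1 and SYCP2.

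The question put to DAC in control cells is which genes it brings up from silence. In siLuc, 7 of the 10 germline genes were tested and 3 were called higher in the authors' deposited table (STAG3, HORMAD1 and CTCFL), none lower. Over all genes the authors called 13.5% of 17504 tested genes (8.71% higher with DAC), and called higher 15.1% of the 4158 tested genes that had under 1 FPKM with DMSO. In siStau1, 7 were tested and 4 were called higher (STAG3, HORMAD1, BRDT and CTCFL), none lower, where the authors called 7.46% of 16979 tested genes (4.56% higher with DAC), and called higher 11.5% of the 3654 that had under 1 FPKM with DMSO. Only REC8 and TEX14 were tested between the DMSO groups, so most of these genes were tested for DAC through the DAC group alone, and the counts are a description. The median log2 ratio of DAC over DMSO, taken with 0.1 added to each FPKM, was 3.29 over all 10 genes in siLuc and 2.28 in siStau1. Over all tested genes it was 0.23 and 0.11. The added 0.1 understates the change of genes at low level, and the medians were 1.33 and 1.30 with 1 added, and 3.76 and 4.08 with 0.01 added.

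Calls were more frequent where a group was listed at exactly 0. Over all 6 comparisons of the authors' deposited table, tests with 1 group at 0 and the other at 1 FPKM or more were called in 48.7% of 1933 cases, and none of these has a test statistic. Where the lower group was above 0 and under 0.1 FPKM, 9.52% of 1229 such tests were called. Without tests that have a group at 0, STAG3 alone remained called among the germline genes, in each arm. The calls of CTCFL, HORMAD1 and BRDT therefore rest on a value of 0 in DMSO.

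Among the axis and synapsis genes, SYCP3 was the highest with DAC. SYCP3 (ENSG00000139351.14, chromosome 12, 101728648 to 101739472, GRCh38) stood at 0.0399 FPKM with DMSO and 3.53 with DAC in siLuc cells, and at 0.0635 and 5.44 in siStau1 cells. Both DAC groups lay above both DMSO groups. The FPKM ratio of DAC to DMSO was 88.4 in siLuc and 85.6 in siStau1, yet neither passed the limit, with q-values of 0.0554 and 0.0654 in the authors' deposited table. Adjusted within each comparison alone, its q-value was 0.0311 in siLuc and 0.0650 in siStau1. SYCP3 lies within the span of CHPT1 on the opposite strand, and without strand information their reads cannot be told apart where exons overlap. CHPT1, a choline phosphotransferase, had 6.63, 4.31, 5.61 and 4.46 FPKM in the same order and was not called.

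HORMAD1 (ENSG00000143452.15, chromosome 1, 150698060 to 150720888) was listed at 0 with DMSO in both arms, and its DAC levels were 0.851 FPKM in siLuc cells and 1.75 in siStau1 cells. It rose with DAC in both arms in the authors' deposited table, with a q-value of 0.00162 each, the smallest the table holds. The difference between the DAC groups, a log2 ratio of 0.96 for siStau1 over siLuc, was not called there (q-value 0.537).

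SYCP2 and SYCP1, partners of SYCP3 in the complex, were not brought to a comparable level. SYCP2 (ENSG00000196074.12, chromosome 20, 59863563 to 59933655) stood at 0.0230 FPKM with DMSO and 0.00843 with DAC in siLuc cells, and at 0.00387 and 0.287 in siStau1 cells. SYCP1 (ENSG00000198765.11, chromosome 1, 114854803 to 114995370) was listed at 0 in 3 groups and had 0.124 FPKM in siStau1 DAC. For both, the only group above 0.1 FPKM was siStau1 DAC, and neither was tested in any comparison. At this level a difference between groups was not detectable.

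The meiotic cohesin subunits differed from each other. STAG3 (ENSG00000066923.17, chromosome 7, 100177563 to 100221488) stood at 0.229 FPKM with DMSO and 3.22 with DAC in siLuc cells, and at 0.262 and 2.195 in siStau1 cells. It rose with DAC in both arms, 14.1-fold in siLuc and 8.36-fold in siStau1, with a q-value of 0.00162 each in the authors' deposited table. It is the only one of the 10 genes called in both arms with reads in every group. STAG3 has near-identical partial copies, and how reads were shared among them is not given in the sources used here, so its level is uncertain. Of 6 such copies, 5 were higher with DAC in each arm and 0 of the 5 tested were called in either, where 13.5% and 7.46% of all tested genes were called, so that 0 of 5 is near the background. The highest, STAG3L5P, had 11.7, 25.4, 7.51 and 17.8 FPKM in the same order of groups.

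REC8 (ENSG00000100918.12, chromosome 14, 24171853 to 24180257), the meiotic kleisin that closes the cohesin ring, was the least silent of the 10 genes in both DMSO groups. Its level was 0.869 FPKM with DMSO and 2.24 with DAC in siLuc cells, and 1.23 and 2.54 in siStau1 cells. The DAC groups were higher by log2 ratios of 1.28 and 0.99, and neither was called in the authors' deposited table (q-values 0.440 and 0.621). Relative to genes of like GC content these ratios were 0.48 and 0.36. Its end overlaps that of IPO4 on the opposite strand, an importin with 16.1 to 41.1 FPKM.

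SMC1B (ENSG00000077935.16, chromosome 22, 45344063 to 45413619) stayed near silence, at 0.0669 FPKM with DMSO and 0.0940 with DAC in siLuc cells, and at 0.0102 and 0.155 in siStau1 cells. No comparison of it was tested by the authors. The meiotic ring subunits thus ended at unlike levels with DAC, with STAG3 and REC8 above 2 FPKM and SMC1B under 0.2 FPKM in both arms.

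TEX14 (ENSG00000121101.15, chromosome 17, 58556678 to 58692055), the germ cell bridge protein, had the highest level of the 10 genes in siLuc DAC. Its level was 0.422 FPKM with DMSO and 5.87 with DAC in siLuc cells, and 1.04 and 3.88 in siStau1 cells. DAC stood 13.9-fold over DMSO in siLuc and 3.74-fold in siStau1, with q-values of 0.268 and 0.247 in the authors' deposited table, so neither was called. The fold in siLuc was close to that of STAG3, which was called. AC011195.2, a coding gene that shares its strand and 5' end region, had 0.0370, 1.22, 0.0310 and 0.861 FPKM, and reads of the pair cannot be told apart where exons overlap.

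Both chromatin genes were under 0.02 FPKM with DMSO and above 2.5 with DAC, and CTCFL alone was called in both arms. CTCFL (ENSG00000124092.12, chromosome 20, 57495966 to 57525652) was listed at 0 with DMSO in both arms, and with DAC it reached 3.34 FPKM in siLuc cells and 3.67 in siStau1 cells. It rose in both arms in the authors' deposited table (q-value 0.00162 each), and the DAC groups did not differ by a call (q-value 0.927). Its log2 ratio of 5.10 in siLuc was reached by 1.22% of tested genes, and that of 5.24 in siStau1 by 0.848%. With DMSO at 0, these ratios depend on the added 0.1. They were 8.39 and 8.52 with 0.01 added, and 2.12 and 2.22 with 1 added.

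BRDT (ENSG00000137948.18, chromosome 1, 91949371 to 92014426) stood at 0.0166 FPKM with DMSO and 2.56 with DAC in siLuc cells, and went from a listed 0 to 3.39 in siStau1 cells. The authors' deposited table called it in siStau1 (q-value 0.00162) and did not in siLuc (q-value 0.555). The level in siLuc DAC against siStau1 DMSO, listed at 0, was called there too (background 16.7% of 17632 genes), while siStau1 DAC against siLuc DMSO was not (q-value 0.553, background 4.98% of 16909 genes). The calls for BRDT thus followed which DMSO group stood in the comparison, and do not show that the arms differed.

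**Figure D3:**
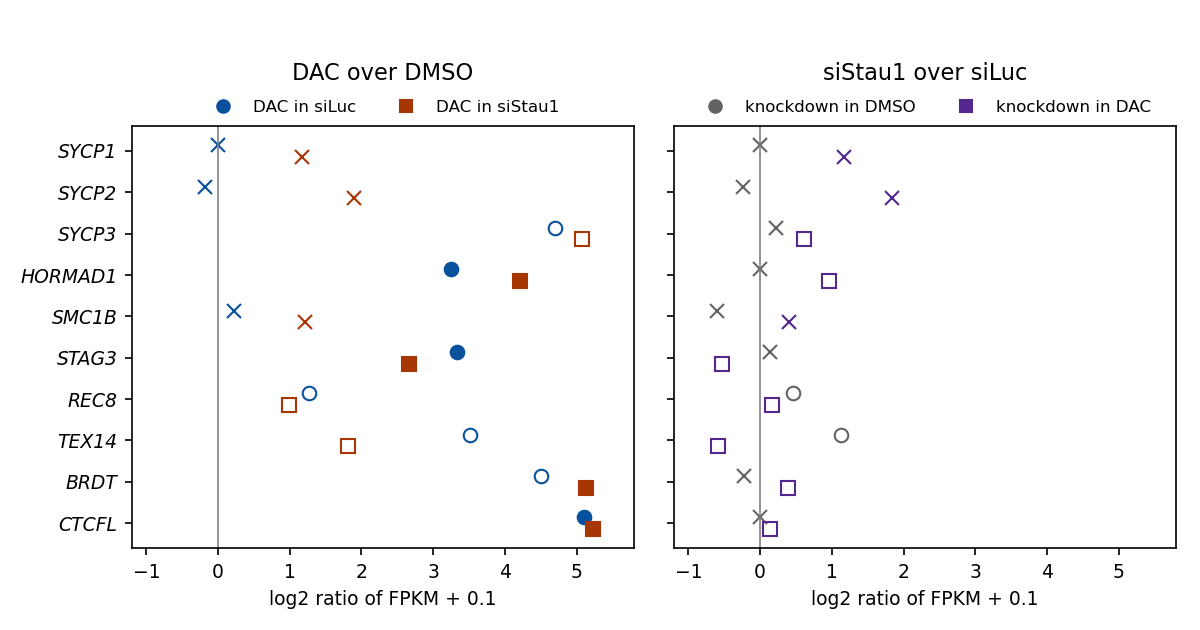
Log2 ratio of FPKM + 0.1 for each germline gene, for DAC over DMSO in each siRNA arm (left) and for siStau1 over siLuc in each treatment (right). Filled symbols were called in the authors' deposited table, open symbols were tested and not called, and crosses were not tested. All filled symbols are in the left panel, and ratios in the right panel lie between -0.60 and 1.84.

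The knockdown comparisons ask whether these genes differed between siStau1 and siLuc cells. STAU1 mRNA itself was not called lower in siStau1 cells, so these comparisons are limited as a test of Staufen1. With DAC, siStau1 against siLuc was tested for 7 of the 10 genes and 0 were called, in either direction. Over all genes the authors called 0.904% of 17263. Of the 7, 0 had an unadjusted p under 0.05. The share of all tested genes under that limit is not given, so this count is not read as a result. The log2 ratios of all 10 had a median of 0.40 beside -0.14 over all tested genes, with 8 higher and 2 lower in siStau1. That median was 0.12 after GC centring, 0.15 with a pseudocount of 1 and 0.17 over the genes with at least 1 FPKM. STAG3 and TEX14 were the lower ones, at -0.53 and -0.58. The highest ratio was that of SYCP2, 1.84, between 0.00843 and 0.287 FPKM, and it was not tested.

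With DMSO, 2 genes were tested for knockdown, REC8 and TEX14, and 0 were called, where the authors called 0.799% of 15893 genes. Neither had an unadjusted p under 0.05, again without a background, so this is not read as a result. TEX14 had a log2 ratio of 1.13 (q-value 0.718 in the authors' deposited table) and REC8 one of 0.45 (q-value 0.863). The other 8 were not tested, and 7 of them were under 0.1 FPKM in both groups, where a difference between the siRNAs was not detectable.

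The size of the DAC difference was set side by side between the arms. In siStau1 the log2 ratio was higher than in siLuc for 7 of the 10 genes, with a median difference of 0.50, which was 0.16 with a pseudocount of 1. The differences ran from -1.71 for TEX14, whose siStau1 DMSO level was already 1.04 FPKM, to 2.08 for SYCP2. SYCP1, SYCP2 and SMC1B, all among the 7, were untested and had at most 0.287 FPKM in any group. The share of all genes with a higher ratio in siStau1 is not given here. Of the genes at 1 FPKM or more in both DAC groups, the difference was 0.13 for CTCFL, -0.28 for REC8, 0.38 for SYCP3, 0.62 for BRDT and -0.67 for STAG3, beside that of TEX14. No test of this difference can be made from 1 value per group.

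Each germline form was also set beside the somatic proteins it resembles, since FPKM is per length and can be summed. CTCFL made up 10.3% of the CTCF and CTCFL level with DAC in siLuc cells and 11.1% in siStau1 cells, from a listed 0 with DMSO. STAG3 went from 0.450% of the summed STAG level in siLuc DMSO to 9.88% in siLuc DAC, and from 0.263% to 4.35% in siStau1. Its share is as uncertain as its level, given the near-identical copies of STAG3. REC8 stayed between 0.701% and 2.51% of the RAD21 and REC8 level, BRDT reached 1.43% and 2.80% of the BET genes, and SMC1B never passed 0.370% of the SMC1 level. The germline forms were therefore the smaller part of each family in all 4 groups.

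**Figure D4:**
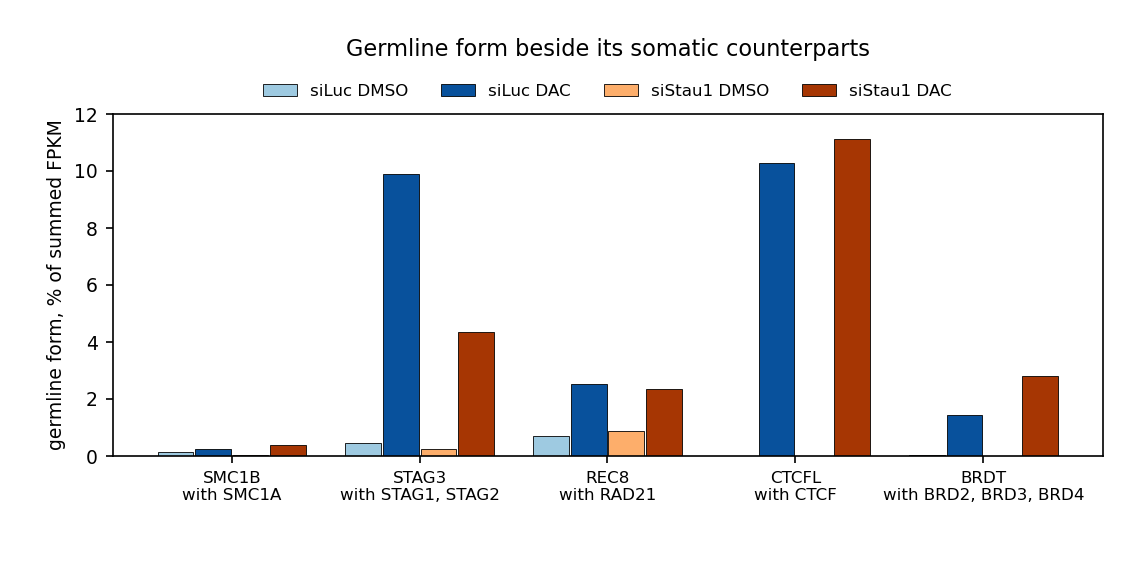
Germline form as a percentage of the summed FPKM of itself and its somatic counterparts (y axis, from 0), by group, with 1 value per group and no error bars. CTCFL and STAG3 reach 10.3% and 9.88% in siLuc DAC, and SMC1B stays below 0.4% in all groups. The share of STAG3 is uncertain because of its near-identical copies.

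The somatic level in these shares also differed between groups. STAG2, the main somatic STAG subunit here, had 34.5 FPKM with DMSO and 18.3 with DAC in siLuc cells, and 77.9 and 32.3 in siStau1 cells. It was lower with DAC in both arms and not called (q-values 0.112 and 0.0729 in the authors' deposited table). The 13 somatic genes include cohesin subunits, the cohesin loader and release factors, CTCF and the BET genes. Of the 13, 1 was called lower with DAC in each arm and 0 higher. This share is near the 13.5% and 7.46% of all tested genes called in siLuc and siStau1. That gene was SMC3, a core ring subunit, with 27.1, 8.97, 44.5 and 18.1 FPKM in the same order. It was also called higher with knockdown under DAC (q-value 0.0434 in the authors' deposited table). CTCF had 38.97, 29.2, 35.7 and 29.2 FPKM, with no call.

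The rest of the meiotic programme was mixed. Of 36 other meiosis genes, 15 were tested for DAC in siLuc, and 3 were called higher and 1 lower in the authors' deposited table. In siStau1 17 were tested, and 4 were called higher and 0 lower there. Over all tested genes 13.5% were called in siLuc (8.71% higher) and 7.46% in siStau1 (4.56% higher). Of tested genes that had under 1 FPKM with DMSO, 15.1% and 11.5% were called higher. No meiosis gene called higher was tested between the DMSO groups. These genes were thus tested for DAC through the DAC group alone, and the counts are a description. The median log2 ratio of the 36 was 0.25 in siLuc and 0.57 in siStau1. DAZL, an RNA-binding protein that licenses germ cells for meiosis, was listed at 0 with DMSO in both arms and rose with DAC to 12.3 FPKM in siLuc cells and 12.6 in siStau1 cells. STRA8, the factor that starts meiosis, was listed at 0 with DMSO and rose to 0.611 and 0.636 FPKM.

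Other genes were called in 1 arm and missed the limit or were not tested in the other. TEX11, an X-linked recombination gene, stood at 0.0890 FPKM with DMSO and 5.51 with DAC in siLuc cells and at 0.242 and 6.38 in siStau1 cells, and was called in siStau1 (q-value 0.00293 in the authors' deposited table) but not in siLuc (0.0626). RNF212, which marks crossover sites, rose in siLuc from a listed 0 to 1.12 FPKM, and in siStau1 it went from a listed 0 to 0.480 and was not tested. MAJIN, which ties telomeres to the nuclear envelope in meiosis, rose in siStau1 from a listed 0 to 1.12 FPKM, and in siLuc it had 0.125 and 0.189 and was not tested. MND1, a partner of the strand exchange proteins, fell in siLuc from 42.6 to 11.4 FPKM and went from 37.0 to 18.4 in siStau1 without a call (q-value 0.167). Whether the DAC change differed between arms was not tested for any of these genes. Their levels in the 2 DAC groups were tested and did not differ by a call. The q-values were 0.855 for TEX11, 0.437 for RNF212, 0.367 for MAJIN and 0.491 for MND1 in the authors' deposited table.

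Several core meiotic genes stayed under 0.6 FPKM in every group. SPO11, which makes the meiotic double-strand breaks, was listed at 0 in all 4 groups. DMC1, the meiotic strand exchange protein, lay between 0.267 and 0.585 FPKM, HORMAD2 reached at most 0.0948 FPKM, and SYCE2 lay between 0.173 and 0.558 FPKM. SYCE1, a central element protein, was higher with DAC in both arms: it was listed at 0 with DMSO and had 0.721 and 0.893 FPKM with DAC, with unadjusted p-values of 0.0102 and 0.00935 and no call (q-values 0.1003 and 0.0948 in the authors' deposited table). Not all uncalled genes stayed low. MEI1 stood at 0.137 FPKM with DMSO and 1.52 with DAC in siLuc cells, and at 0.0491 and 1.17 in siStau1 cells. MEIOC reached 1.73 FPKM with DAC in siLuc cells and 2.67 in siStau1 cells, and MEIKIN 1.26 and 0.766. Of the 36, 22 were higher and 11 lower with DAC in siLuc, and 25 and 9 in siStau1. With knockdown 8 of the 36 were tested in DMSO and 18 in DAC, and 0 were called in either treatment. Over all tested genes 0.799% and 0.904% were called, so 0 calls among so few tests is near the background. Of the 8 and 18, 0 had an unadjusted p under 0.05, a count without a background here that is not read as a result.

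**Figure D5:**
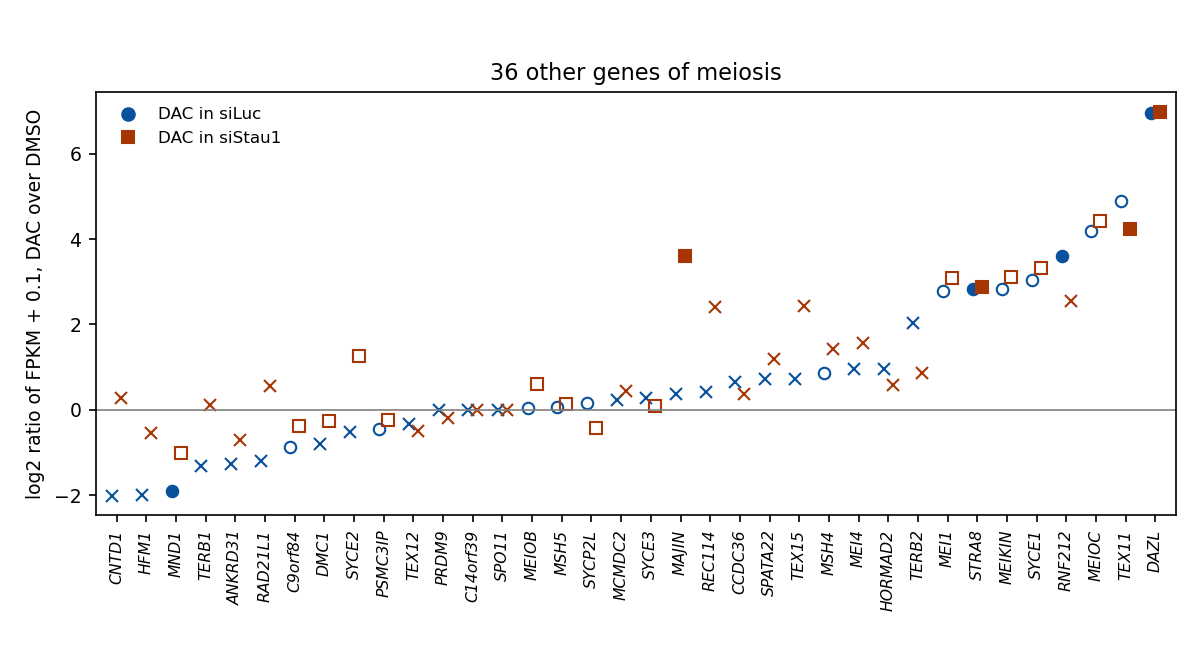
Log2 ratio of FPKM + 0.1, DAC over DMSO, for 36 other meiosis genes ordered by the ratio in siLuc, with circles for siLuc and squares for siStau1. Filled symbols were called in the authors' deposited table, open symbols were tested and not called, and crosses were not tested. DAZL is highest in both arms, and MND1 is the only filled symbol below 0.

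Of 9 germ cell markers, 5 of 6 tested were called higher with DAC in siLuc and 3 of 5 in siStau1 in the authors' deposited table. Over all tested genes 8.71% and 4.56% were called higher, and 15.1% and 11.5% of tested genes that had under 1 FPKM with DMSO. Of the 9, only ACR was tested between the DMSO groups. The others, where tested for DAC, were so through the DAC group alone, and the counts are a description. The part of these markers in the results was not tested. Their summed level was 0.922 FPKM with DMSO and 37.7 with DAC in siLuc cells, and 0.0801 and 38.98 in siStau1 cells. DAZL is on this list as well. The 3 called in siStau1, DDX4, DAZL and TDRD1, were listed at 0 with DMSO, as were all those called in siLuc except PIWIL2. In siStau1 MAEL went from 0.0241 to 14.2 FPKM and PIWIL2 from 0.0560 to 3.95 without a call (q-value 0.598 each in the authors' deposited table). ACR, the sperm protease acrosin, went the other way in siLuc, from 0.698 to 0.0509 FPKM, without a call (q-value 0.618 in the authors' deposited table). It was listed at 0 in siStau1 DMSO and called lower there than in siLuc DMSO (q-value 0.0157 in the authors' deposited table). PIWIL1 and the spermatid genes TNP1 and PRM1 were listed at 0 in all 4 groups.

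The 10 genes have 25 protein-coding neighbours that overlap them or are nearest on either side. Of the 18 tested for DAC in siLuc, 1 was called, RBM38, an RNA-binding protein gene 86633 bases from CTCFL, which rose from 8.33 to 25.2 FPKM. In siStau1 2 of 17 were called, RBM38 from 7.49 to 18.8 FPKM and MYBPC1, a muscle protein gene 42630 bases from SYCP3, which fell from 0.672 to 0.0302 FPKM. Over all tested genes 13.5% were called in siLuc and 7.46% in siStau1, so these counts of neighbours are near the background. The median log2 ratio of the 25 was 0.21 in siLuc and 0.00 in siStau1.

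Some of these neighbours start on the opposite strand close to the germline gene. RIBC2 starts 72 bases from SMC1B and had 4.36 FPKM with DMSO and 3.004 with DAC in siLuc cells, and 3.36 and 4.07 in siStau1 cells. FAM217B starts 109 bases from SYCP2 and had 5.25, 2.75, 8.64 and 4.30 FPKM in that order. Both stretches printed above for SYCP2 and SMC1B thus span the gap between a gene near silence and a transcribed one. GPC2, 191 bases from STAG3, had 0.663, 1.49, 0.824 and 0.752 FPKM, and RAD51C, 518 bases from TEX14, had 75.1, 44.2, 90.9 and 65.8 FPKM.

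Silence in DMSO alone did not mark a gene for induction. Counting protein-coding genes that lay under 0.1 FPKM with DMSO in both arms gave 6043, of which 243 (4.02%) had at least 1 FPKM in both DAC groups. Of the germline genes 7 met that limit, and 3 of these, SYCP3, BRDT and CTCFL, had at least 1 FPKM in both DAC groups.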

How the data were processed

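Total RNA of 8 libraries in 4 groups was analysed from 1 table. Per the file headers, the authors deposited FPKM values in Cuffdiff layout, 1 per gene and group, with a test score, p-value and q-value for each of 6 pairs of groups. The submitters' processing notes name hg38, HISAT2 2.1.0 and Cuffdiff 2.2.1, with no role given; the counting of shared reads is not given in the sources used here. The deposited q-value equals a Benjamini-Hochberg adjustment over all 102180 tests to within 5.3e-07. The deposited test score was used only to see where it is missing. With no value per library, the count and limma tests, replicate blocks and fits without single libraries could not be run, and the depth is unknown. Log2 ratios used a pseudocount of 0.1 FPKM (Python 3.11.15, pandas 2.3.3). Positions, biotypes and GC content came from GENCODE release 29, which holds all 58699 identifiers. GC centring used 20 bins of protein-coding genes. The adjustment and centring were tested on simulated data. The 3 J2 libraries, which measure repeats, were not used.

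The members, lists and tests were chosen with earlier results of these data known. All 10 members were named, together with called or preset genes of the other lists, the nearest protein-coding neighbours, and the 3 protein-coding genes nearest each member in level. Some uncalled genes of those lists, such as SPO11, MEI1 and E2F6, were named as well. Alternatives were other pseudocounts, q limits, adjustments, filters and scalings.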

Additional observations from a re-analysis of the deposited data

How the results depend on the processing

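No paired analysis was possible because the table gives 1 value per group, and for the same reason no library could be left out. The numbers of germline genes called in siLuc and siStau1, 3 and 4, stayed within 2 to 4 under the q limit of 0.01, the adjustment within a comparison and the filter at 1 FPKM, and both became 1 without tests that have a group at 0, an alternative added after seeing the data. The 4 and 4 other meiosis genes called became 1 and 1 in that way. For DAC in siLuc the median log2 ratio of 3.29 was 3.76 with a pseudocount of 0.01, 1.33 with 1, and 4.01 over genes with at least 1 FPKM in a group. For DAC in siStau1 the median of 2.28 was 4.08, 1.30 and 4.21 in the same order, and 2.46 after GC centring, which was also added after seeing the data. For knockdown in DMSO the median of 0.00 was 0.79 over the 2 genes with at least 1 FPKM and -0.29 after GC centring. For knockdown in DAC the median of 0.40 was 0.51 with a pseudocount of 0.01, 0.15 with 1, 0.51 with the median of expressed genes (a log2 ratio of -0.11) set to 0, 0.17 over genes with at least 1 FPKM, and 0.12 after GC centring. The median difference of the DAC ratio between arms, 0.50, was 0.16 with a pseudocount of 1 and 0.36 after GC centring. The causes of these shifts were not tested. GC centring turned the direction of SYCP2 for DAC in siLuc, from -0.18 to 0.76, and of SYCP3 for knockdown in DMSO, from 0.23 to -0.17, both at under 0.1 FPKM.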

Other observations

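Genes that bind and silence germline promoters in somatic cells were expressed in every group. Of 10 genes of the repressor complex PRC1.6, which holds germline genes off through E2F6 and the E-box factors MGA and MAX, all were above 1 FPKM in all 4 groups and 0 were called for DAC or for knockdown in the authors' deposited table. Over all tested genes 13.5% and 7.46% were called for DAC in siLuc and siStau1, and 0.799% and 0.904% for knockdown in DMSO and DAC, so that 0 of 10 is near the background. In the comparison of siStau1 DMSO with siLuc DAC, L3MBTL2 was called, at 14.2 against 36.2 FPKM (q-value 0.0291 in the authors' deposited table). At an unadjusted p under 0.05 there were 4 with DAC in siLuc cells, 0 with DAC in siStau1 cells, and 0 and 1 for the knockdown without and with DAC. The share of all tested genes under that limit is not given here, so these counts have no background and are not read as a result. E2F6 itself had 15.1 FPKM with DMSO and 18.1 with DAC in siLuc cells, and 14.8 and 17.7 in siStau1 cells. PCGF6, the subunit that defines this form of the complex, had 19.3, 9.53, 18.1 and 14.5 FPKM in that order (q-value 0.0815 for DAC in siLuc).

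The genes nearest to a member in level, by Euclidean distance of log2(FPKM + 0.1) over the 4 groups, included other germline and cancer-testis genes. For CTCFL the nearest were MAGEA8 (distance 0.105), AL110118.2 (0.189) and SPANXB1 (0.212). For BRDT they were DDX43 (0.244), SSX3 (0.274) and TRIM43B (0.358), and for HORMAD1 GNGT2 (0.124), DDX4 (0.241) and GNG11 (0.301). SYCP3 was less close to any gene, with RFPL4B at 0.698, MAGEB6 at 0.729 and IL23R at 0.763. For STAG3 the nearest were SLC5A5 (0.263), INSYN1 (0.441) and ALDH1L1 (0.594), for TEX14 HLA-DPB1 (0.455), AK5 (0.758) and ZNF426 (0.764), and for REC8 MARCH3 (0.140), SGSM1 (0.177) and AC019117.2 (0.208). Over 4 groups a small distance describes similar values and no more.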
